A study of Mus musculus with 4 samples.

Results

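Small nucleolar RNAs (snoRNAs) and their Cajal body relatives were followed on 4 Affymetrix gene arrays of mouse bone marrow cells. Members were all probe sets whose only symbol in the platform annotation begins with Snord, Snora or Scarna. This gave 60 of the 28939 probe sets tested, from 54 of 19938 genes with a probe set of 1 symbol: 33 probe sets of 31 C/D box genes, 23 of 20 H/ACA box genes and 4 of 3 Cajal body genes. The groups compared held 2 arrays each: Klf7-/- cells, labelled KLF7 KO, and Klf7+/+ cells, labelled wild type. All were Lin- c-Kit+ Sca-1+ (KLS) cells, the gate for hematopoietic stem and early progenitor cells, of strain C57Bl/6. Per the series design, chimeric mice were built from fetal liver cells, and their marrow held cells of both genotypes. Age, the number of mice per array and the deleted part of Klf7 are not given in the sources used here. Whether the arrays came from separate animals is not stated either, so the p-values refer to the scatter of these arrays alone, and that scatter could be purely technical.

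SnoRNAs are short, stable RNAs without a poly(A) tail that sit with proteins in the nucleolus. C/D box members guide methylation of ribosomal RNA and H/ACA box members guide its pseudouridylation, while a few of each class help to cut the ribosomal RNA precursor. Cajal body RNAs do the same for the small nuclear RNAs of the spliceosome. In mammals most are cut from the introns of host genes, many of which encode ribosomal proteins or other parts of the translation machinery.

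The annotation placed the members in this way. In the GRCm38.p6 annotation of RefSeq, 53 of the 54 genes lay inside the interval of another, larger gene, and Snord118 did not. Strand was not checked. Ribosomal protein genes held 21 of them, in 16 distinct hosts, and 12 lay in long non-coding RNAs only, such as the Snhg genes (small nucleolar RNA host genes). No host held more than 2 members, and 10 hosts held 2. Annotated lengths ran between 45 and 275 nucleotides.

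Sequences of the snoRNAs themselves were not used here, but RefSeq gives the start regions of 33 of the 46 host genes. Transcripts of many translation genes, hosts among them, are known to open with a pyrimidine tract. At least 5 pyrimidines in a row (C or T, gene strand only), counted from the annotated start onward, were found in 8 of the 33 hosts (24.2%), and in 5.28% of all 27025 genes in the table. In all 8 the base before the start was a pyrimidine too, so these runs cross the annotated start, which is approximate. A run is a description of the letters only. The hosts shown were taken from these 8, so each has a run by choice. They are the hosts of Snora3, Snora44, Snord95 and Snora23. Snora3 and Snora44 are the H/ACA RNAs with the largest positive and negative differences. Snord95 is the C/D RNA with the largest positive one among brighter members, and Snora23 is the steadiest of the brighter H/ACA RNAs. Hosts of other members with large differences, such as Rpl4 of Snord16a and Rpl23a of Snord42a, are not among the 8. Each line gives 20 bases before and 20 bases from the annotated start, with the part of the pyrimidine run from the start onward in capitals. The windows are Rpl27a at chr7:109519175-109519214 (plus strand), Snhg12 at chr4:132308658-132308697 (plus strand), Rack1 at chr11:48800340-48800379 (plus strand) and Ipo7 at chr7:110018295-110018334 (plus strand), all GRCm38.p6.
Rpl27a: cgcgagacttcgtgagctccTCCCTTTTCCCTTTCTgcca
Snhg12: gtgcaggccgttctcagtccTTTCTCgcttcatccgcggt
Rack1: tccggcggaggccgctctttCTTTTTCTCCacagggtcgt
Ipo7: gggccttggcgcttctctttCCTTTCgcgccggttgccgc

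A few facts of the whole series bear on what follows. Median log2 intensity lay between 5.67 and 5.71 on the 4 arrays. Of the genes listed as markers of KLS cells, Kit, Cd34, Flt3, Meis1 and Cd48 were bright, with means of 9.83, 9.92, 9.57, 9.61 and 8.50. Only Kit among those measured is part of the gate's own definition. Procr lay at 5.85 and Slamf1 at 4.41, within or below the range of the T cell markers. Ly6a, the gene of Sca-1, was not among those measured. The 4 T cell markers lay between 4.94 and 5.95. Of the other lineage lists, the early myeloid gene Mpo (10.28), the pan-leukocyte gene Ptprc (9.82), Pf4 of megakaryocytes (8.53) and Car1 of erythroid cells (7.67) were well above the median too, and Ms4a1, Cd79a, Ly6g, Itgam, Csf1r and Klf1 lay between 3.96 and 5.60. Elane and Itga2b lay at 5.76 and 6.25. All 7 measured genes of the 9 listed for KLS cells were higher in knockout, by 0.01 to 0.62, and none passed the test. Their part in the values below was not tested. The Klf7 probe set read 6.59 and 6.18 on the knockout arrays, against 5.95 and 6.10 on the wild-type arrays. Since the deleted part is unknown here, this probe set cannot check the labels. Xist, the RNA of the inactive X chromosome, was the one probe set past the threshold, at 11.76 and 11.58 on knockout arrays and 5.24 and 4.80 on wild-type arrays. Y-linked transcripts divided the arrays the other way, so genotype and sex-linked expression cannot be told apart here.

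The data first show how unsteady snoRNA signals were between arrays, within either genotype. Over the 60 probe sets, the median distance between the highest and the lowest of the 4 arrays (the 4-array range) was 1.37 on the log2 scale, a 2.59-fold spread, compared with 0.46 over all probe sets tested. A 4-array range of at least 2-fold was seen in 40 members (66.7%), and in 13.6% of all probe sets. At least 4-fold was seen in 20 members (33.3%), and in 2.08% of all. Among the 44 members above the median level of all probe sets, the median range was 1.40, against 0.53 for all probe sets above that level. These are descriptions, since members share arrays and in part probes.

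**Figure D1:**
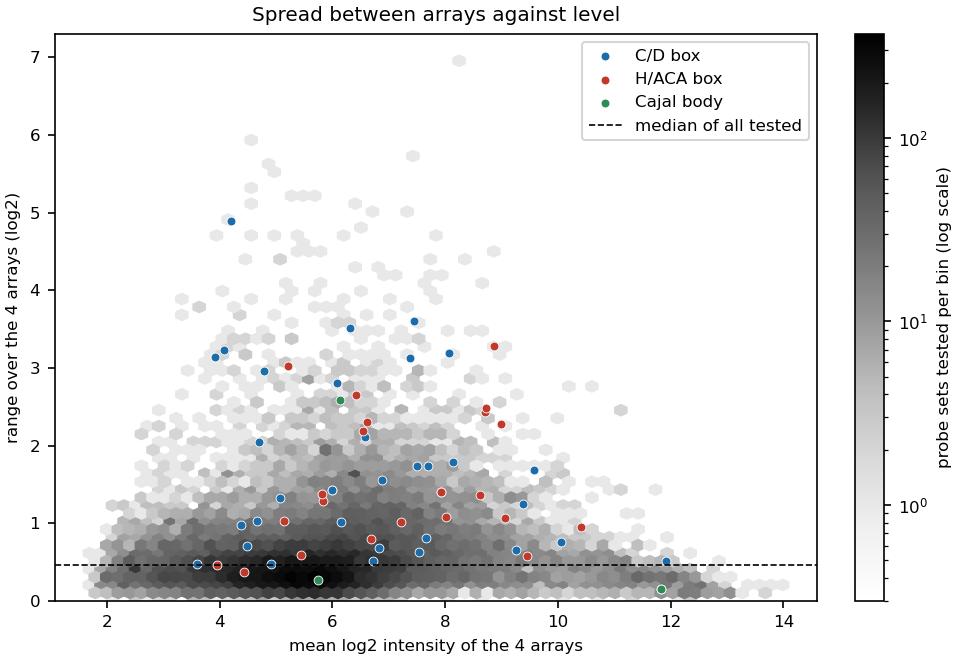
Range over the 4 arrays (log2, vertical axis) against mean log2 intensity for every probe set tested (grey hexagons, shaded by number on a log scale) and for the 60 members (coloured points by class); the dashed line is the median range of all probe sets, 0.46. Most C/D and H/ACA box points lie above the line, and 3 of the 4 Cajal body points lie below it.

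By class, C/D box RNAs had a median range of 1.43 (quartiles 0.75 and 2.81) and H/ACA box RNAs one of 1.36 (quartiles 0.98 and 2.29), which are 3.13 and 2.97 times the median of all probe sets. Cajal body RNAs had a lower median range, of 0.21 over 4 probe sets, 2 of which hold identical values. The Cajal body count is too small to set the class apart. Among the 54 genes, each at its brightest probe set, the range was weakly lower in longer genes (Spearman's rho -0.21, across genes that share arrays). Its median was 1.69 in the 29 genes under 100 nucleotides and 1.06 in the 25 longer ones. Nearly all of the short genes are of the C/D class, so length and class overlap.

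Within genotypes, the median gap between the 2 arrays was 0.60 in knockout and 0.68 in wild type for C/D box RNAs, and 0.39 in knockout and 0.85 in wild type for H/ACA box RNAs. Over all probe sets these medians were 0.21 and 0.23. A gap of 2-fold or more was found in knockout for 12 of the 60 members and in wild type for 22 (36.7%). For all probe sets these shares were 4.005% in knockout and 5.26% in wild type. The gap was wider between the wild-type arrays for 39 of the 60 members (65.0%), and for 53.1% of all probe sets. The difference between genotypes in this gap was not tested.

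One pair of arrays stood out for the C/D class. Each array's median deviation from the 4-array mean was -0.06 and 0.09 for knockout replicates 1 and 2, and -0.38 and 0.30 for wild-type replicates 1 and 2. Wild-type replicate 2 was the highest array for 16 of the 33 C/D probe sets (48.5%, against 31.5% of all probe sets), and wild-type replicate 1 the lowest for 12 (36.4%, against 23.6%) and the highest for 2. H/ACA box RNAs showed smaller shifts, at 0.10 and -0.08 on knockout arrays and -0.13 and -0.04 on wild-type arrays. The same medians over all probe sets stayed between -0.04 and 0.02.

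**Figure D2:**
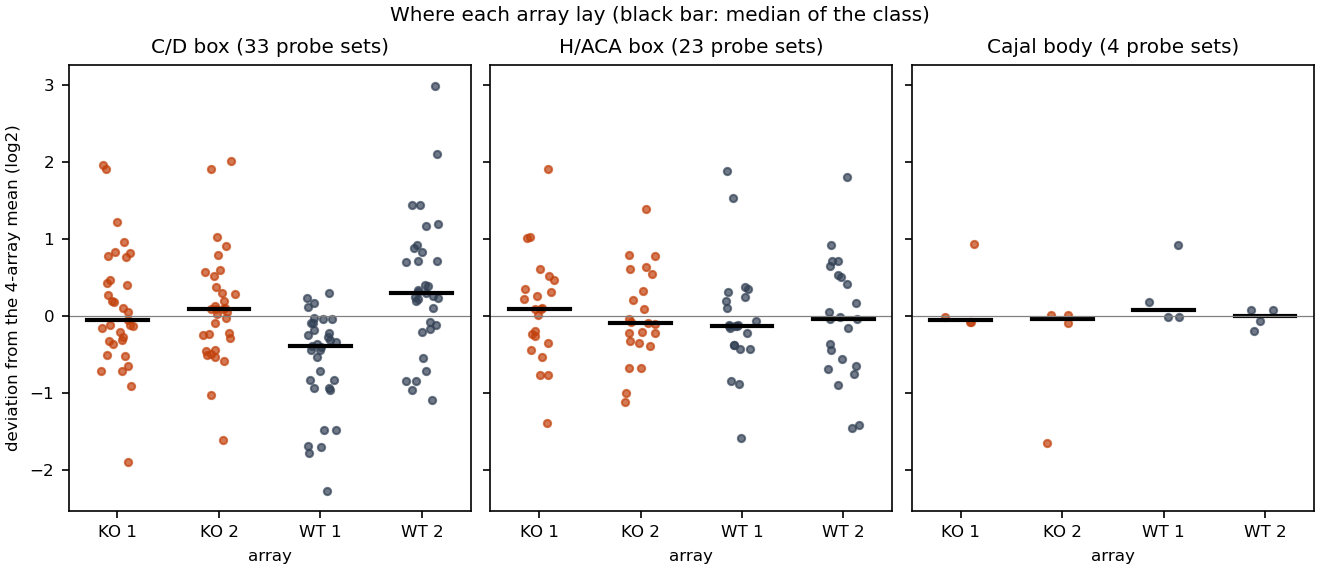
Deviation of each member probe set from its own 4-array mean (log2) on the knockout (KO) and wild-type (WT) arrays, by class; points are probe sets and black bars are class medians. C/D box RNAs sit low on WT 1 (median -0.38) and high on WT 2 (median 0.30), with both KO arrays between them.

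The members with the widest ranges among the brighter C/D box genes were high on different arrays. Snord49b read 6.53 and 9.35 on the knockout arrays and 5.75 and 8.15 on the wild-type arrays, high on both arrays numbered 2. Snord35b read 8.22 and 4.70 on knockout arrays and 4.83 and 7.50 on wild-type arrays, an 11.5-fold range with 1 high array in each genotype. Snord38a read 8.89 and 8.59 on knockout arrays and 5.80 and 8.995 on wild-type arrays, so that wild-type replicate 1 alone was low. In each of the 3 the groups overlapped, and the differences of 0.99 ± 1.23, 0.29 ± 1.46 and 1.34 ± 1.06 (SE, n = 2 per group) did not pass the test. The widest range of all members, chosen here after its values were seen, was that of the dim X-linked Snord61, at 2.30 and 4.58 on knockout arrays and 2.72 and 7.19 on wild-type arrays.

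Among the brighter H/ACA box genes the widest ranges belonged to Snora44, Snora69 and Snora3, and the first and last of these are described with the genotype comparison. X-linked Snora69 read 5.66 and 6.22 on knockout arrays and 5.58 and 8.23 on wild-type arrays, with wild-type replicate 2 alone high. Its difference of -0.97 ± 0.90 turned to 0.36 without that array.

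Some members were steadier than most of their class, though each one named here ranged wider than the median of all probe sets, 0.46. Snord104, one of the brightest, read 11.79 and 11.66 on knockout arrays and 12.03 and 12.17 on wild-type arrays. Snord55 read 6.46 and 6.79 on knockout arrays and 6.70 and 6.97 on wild-type arrays. Snord57, in an intron of the C/D core protein gene Nop56, read 7.20 and 7.63 on knockout arrays and 7.83 and 7.45 on wild-type arrays. Of these 3 ranges the largest was 0.63. The steadiest bright H/ACA RNAs were Snora23, Snora73a and Snora31, with ranges of 0.58, 0.80 and 0.95. Snora23 read 9.20 and 9.78 on knockout arrays and 9.34 and 9.52 on wild-type arrays. Snora31 read 10.93 and 10.32 on knockout arrays and 9.98 and 10.39 on wild-type arrays.

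All 3 Cajal body RNAs are accounted for. Scarna17, a guide of the C/D type, read 11.75 and 11.83 on knockout arrays and 11.81 and 11.90 on wild-type arrays, and both of its probe sets held the same values. Scarna13, a guide of the H/ACA type, read 5.73 and 5.65 on knockout arrays and 5.92 and 5.68 on wild-type arrays. Scarna8, likewise of the H/ACA type and carried by Haus6, read 7.06 and 4.48 on knockout arrays and 7.05 and 5.93 on wild-type arrays, with knockout replicate 2 lowest. All 3 overlapped between genotypes. Their differences were -0.07 ± 0.16, -0.11 ± 0.17 and -0.72 ± 0.94 (SE, n = 2 per group), and the last was 0.57 without knockout replicate 2.

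**Figure D3:**
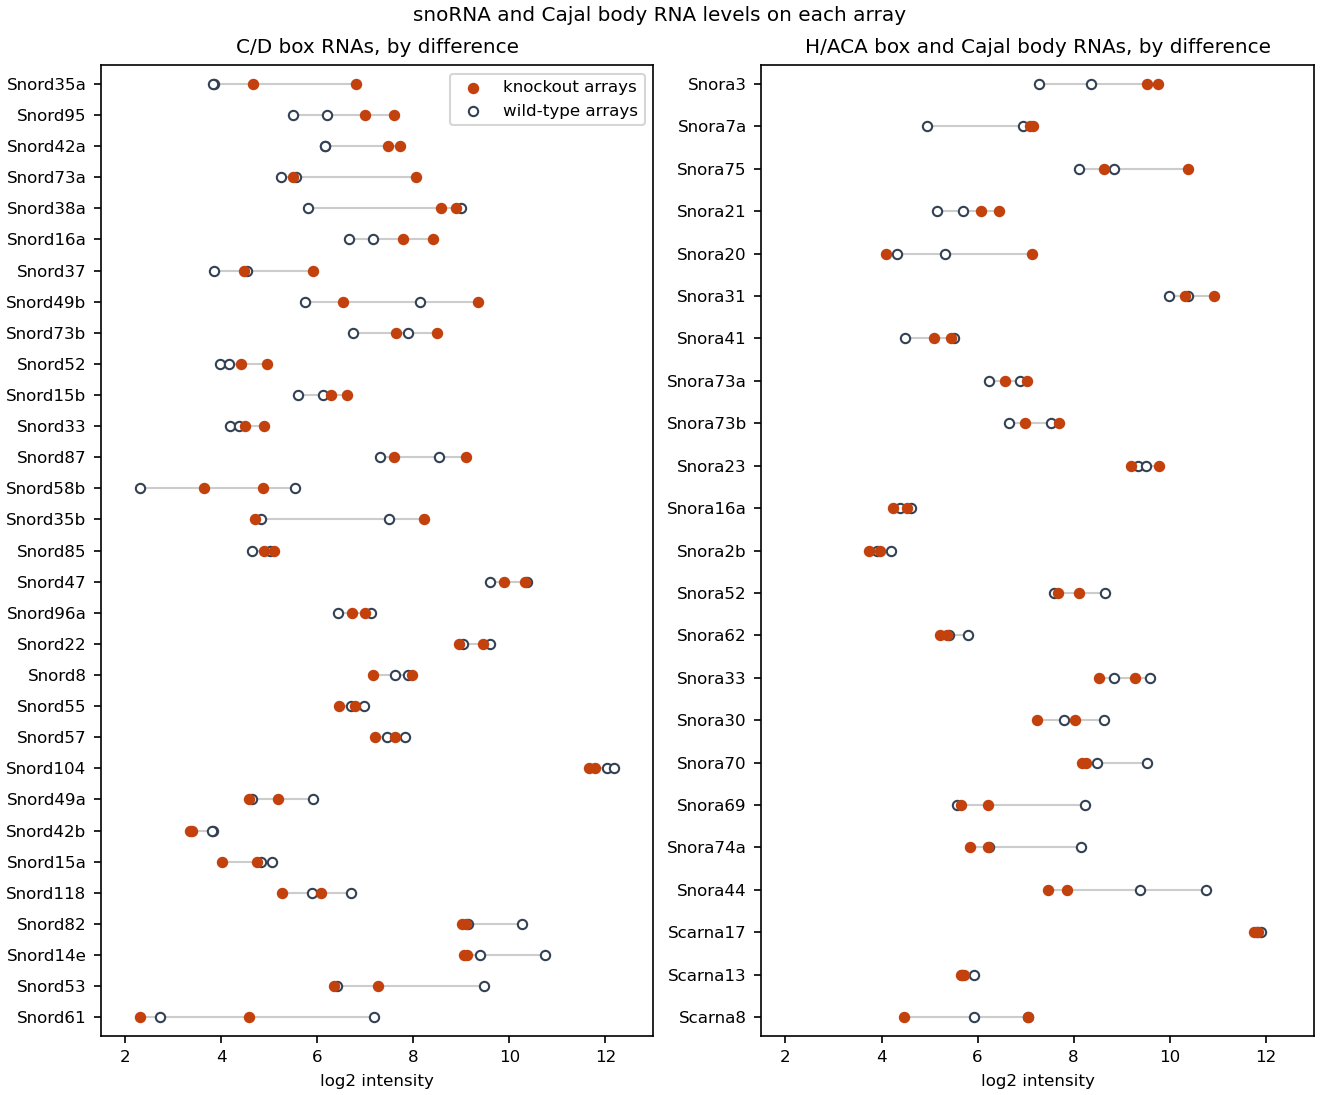
Log2 intensity of each of the 54 genes at its brightest probe set on the 2 knockout arrays (filled orange) and the 2 wild-type arrays (open), ordered within class by knockout minus wild type; grey lines span the 4-array range. Snord42a and Snora44 separate the genotypes by more than the gap within either, whereas Snord35b and Snord49b have widely parted arrays in both genotypes.

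The comparison the study was built for sets knockout against wild type. No snoRNA or Cajal body RNA rose or fell past the threshold in limma (adjusted p under 0.05 over all probe sets tested): 0 of 60 were called, where 0.00346% of all probe sets were. The smallest adjusted p among members was 0.648. At an unadjusted p under 0.05 there were 9 member probe sets of 60, 7 higher and 2 lower in knockout, where 5.01% of all probe sets passed; counted once per gene, 7 of 54 did. Groups did not overlap for 21 members (35.0%), near the 33.6% of all probe sets. Of them 12 were higher in knockout, where 13.9% of all probe sets were, and 9 lower, where 19.6% were. In these bulk samples, fewer cells of a type and less RNA per cell cannot be told apart.

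By size, 9 member probe sets from 8 genes lay at least 2-fold apart with no overlap (9 of 60), where 1.72% of all probe sets did. Among the 44 members above the median level 8 did (18.2%), where 2.52% of all probe sets above that level did. The 9 were 4 C/D and 5 H/ACA probe sets. In knockout 7 were higher, against 0.881% of all probe sets, and 2 were lower, against 0.836%. The members' wider gaps within a genotype, given above, stand beside this count, and their part in it was not tested. With any 1 array left out, which makes overlap easier to avoid, the count lay between 16 and 23, the highest without wild-type replicate 1, where the share of all probe sets lay between 2.94% and 3.46%. With an offset of 32 added before the log2 step it was 5, where 0.646% of all probe sets were as far apart. With the 6615 probe sets left out as presumed controls kept in, it stayed at 9. The share of all 35554 probe sets was then 4.19%, so the 1.72% depends on leaving them out.

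As classes, neither box moved to one side. The median difference was 0.17 for C/D box RNAs, with 19 probe sets higher and 14 lower in knockout, and 0.06 for H/ACA box RNAs, with 12 higher and 11 lower. The median over all probe sets was -0.03. The C/D median hung on the wild-type arrays: it was -0.26 without wild-type replicate 1 and 0.51 without wild-type replicate 2. It was 0.06 with an offset of 32. The H/ACA median was -0.03 without wild-type replicate 1. It was also -0.03 with probe sets of a gene averaged. All 4 Cajal body probe sets were lower in knockout, with a median of -0.09. The quartiles of the difference were -0.39 and 0.74 for C/D and -0.45 and 0.81 for H/ACA, against -0.19 and 0.13 for all probe sets.

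**Figure D4:**
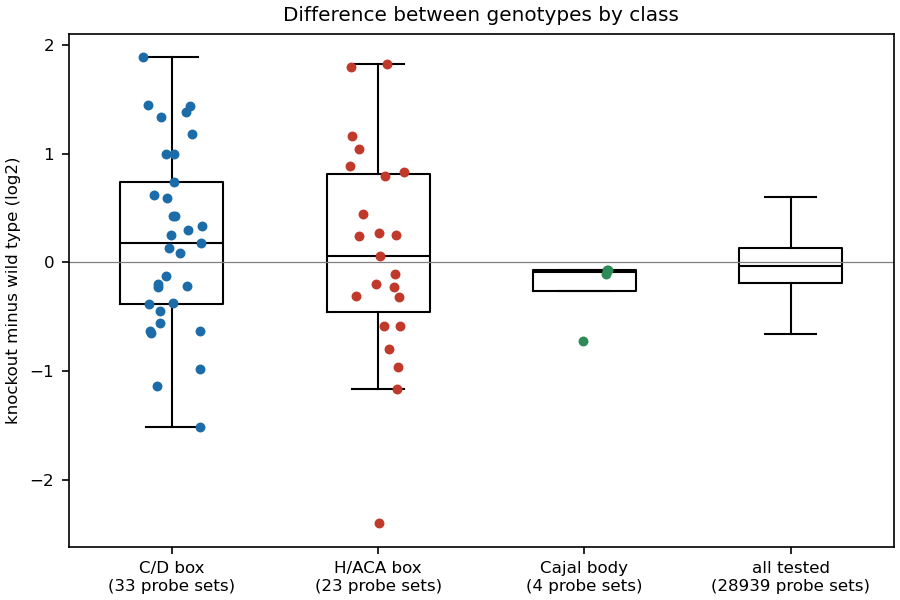
Knockout minus wild type (log2) for every member probe set by class (points) and for all probe sets tested; boxes give quartiles and median, and whiskers reach 1.5 times the interquartile range. Both box classes straddle 0, with medians of 0.17 and 0.06, and spread wider than all probe sets.

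Of single members, Snord42a came closest to a call. This C/D box RNA of the Rpl23a introns read 7.72 and 7.48 on the knockout arrays, against 6.17 and 6.16 on the wild-type arrays. Both knockout arrays were higher, with a gap of 0.24 within knockout and 0.01 within wild type. Knockout exceeded wild type by 1.44 ± 0.17 (SE, n = 2 per group; 95% confidence interval 0.99 to 1.88), or 2.71-fold, with an adjusted p of 0.648. Its unadjusted p ranked 23rd of all probe sets, and it stayed between 1.32 and 1.55 with any array left out. Its neighbour in the same host, Snord42b, lay lower in knockout, at 3.39 and 3.36 against 3.84 and 3.81 in wild type, near the dim end of the arrays. Snord42b is named after its values were seen.

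A further 3 bright C/D box genes were higher in knockout without overlap. Snord95, from the gene of the ribosomal scaffold protein Rack1, read 7.005 and 7.60 on knockout arrays and 6.21 and 5.49 on wild-type arrays, a difference of 1.45 ± 0.34. Snord16a, from Rpl4, read 7.78 and 8.41 on knockout arrays and 7.16 and 6.67 on wild-type arrays, a difference of 1.18 ± 0.30. Snord15b, from Rps3, read 6.62 and 6.28 on knockout arrays and 6.12 and 5.60 on wild-type arrays, a difference of 0.59 ± 0.25. All 3 had an adjusted p of 0.945. With an array left out, Snord95 stood at 1.09 to 1.81, Snord16a no lower than 0.86 and Snord15b at 0.33 to 0.84.

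Also without overlap, 3 bright C/D box genes lay lower in knockout, and for a pair of them wild-type replicate 2 set the size. Snord14e, a copy of the U14 snoRNA that takes part in cutting out the small-subunit ribosomal RNA, read 9.05 and 9.12 on knockout arrays and 9.39 and 10.74 on wild-type arrays. Its difference was -0.98 ± 0.47, and -0.31 without wild-type replicate 2. Snord82, from the nucleolin gene Ncl, read 9.02 and 9.10 on knockout arrays and 9.14 and 10.27 on wild-type arrays, a difference of -0.65 ± 0.40 that was -0.08 without the same array. Snord104, with the smallest range of the brighter C/D box genes, differed by -0.37 ± 0.16.

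In the H/ACA box class the largest positive difference was that of Snora3, which lies in Rpl27a. Its brighter probe set read 9.76 and 9.52 on the knockout arrays and 8.35 and 7.27 on the wild-type arrays, with both knockout arrays above both wild-type arrays. Knockout exceeded wild type by 1.82 ± 0.39 (SE, n = 2 per group), or 3.54-fold, with an adjusted p of 0.945, and it lay between 1.28 and 2.36 with an array left out. The second probe set gave 1.80, from values within 0.03 of the first, so it adds no separate measurement. Snora21, from Rpl23, read 6.06 and 6.45 on knockout arrays and 5.69 and 5.16 on wild-type arrays, a difference of 0.83 ± 0.26 that was 0.53 with an offset of 32. Snora7a, from Rpl32, read 7.15 and 7.08 on knockout arrays and 4.96 and 6.95 on wild-type arrays. Its difference of 1.17 ± 0.67 was 0.17 without wild-type replicate 1.

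Snora44 had the largest difference of any member. It read 7.47 and 7.87 on the knockout arrays and 10.76 and 9.38 on the wild-type arrays, both wild-type arrays being far above. Knockout minus wild type came to -2.40 ± 0.49 (SE, n = 2 per group; 95% confidence interval -3.70 to -1.10), a 5.28-fold deficit in knockout with an adjusted p of 0.945, and it lay between -3.09 and -1.71 with an array left out. Snora16a, in the same non-coding host Snhg12, read 4.24 and 4.53 on knockout arrays and 4.38 and 4.61 on wild-type arrays, with overlap. Snora74a, from Snhg4, read 5.85 and 6.22 on knockout arrays and 8.15 and 6.25 on wild-type arrays, a difference of -1.16 ± 0.66 that was -0.21 without wild-type replicate 1. X-linked Snora70, from Rpl10, read 8.17 and 8.26 on knockout arrays and 8.49 and 9.53 on wild-type arrays, a difference of -0.80 ± 0.37 that was -0.28 without wild-type replicate 2.

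Members with roles other than guiding modification gave no difference past the threshold. Snord118 (U8), needed for the large-subunit ribosomal RNAs, read 5.27 and 6.07 on knockout arrays and 5.90 and 6.71 on wild-type arrays. Snord22 (U22), which acts in small-subunit rRNA processing, read 8.95 and 9.45 on knockout arrays and 9.04 and 9.60 on wild-type arrays. Both overlapped between genotypes. Snora73a and Snora73b (U17), in the introns of Snhg3 and likewise tied to small-subunit processing, differed by 0.25 ± 0.30 and 0.24 ± 0.39. Snora73a read 7.03 and 6.57 on knockout arrays and 6.88 and 6.24 on wild-type arrays. Snora73b read 7.69 and 6.99 on knockout arrays and 7.53 and 6.66 on wild-type arrays, so that both were lower on the arrays numbered 2. Without wild-type replicate 2 both differences turned below 0.

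The Rpl13a introns carry C/D box RNAs known from hamster and mouse cells as mediators of lipid-induced stress. Of these, Snord33 and Snord35a had probe sets of 1 symbol. Snord35a read 4.67 and 6.81 on knockout arrays and 3.86 and 3.84 on wild-type arrays, with no overlap and with knockout replicate 2 far above the rest. Its difference was 1.89 ± 0.72 (adjusted p = 0.945), and 0.82 without knockout replicate 2. Snord33 read 4.89 and 4.50 on knockout arrays and 4.17 and 4.36 on wild-type arrays, a difference of 0.43 ± 0.21 that was 0.23 without knockout replicate 1. With an offset of 32 these differences were 0.97 for Snord35a and 0.18 for Snord33, which is dim. Probe sets that also name Rpl13a read 5.48 and 5.25 on knockout arrays and 4.95 and 4.64 on wild-type arrays for Snord34, and 5.39 and 5.32 on knockout arrays and 5.70 and 5.82 on wild-type arrays for Snord32a. The 4 neighbours thus lay on both sides of 0.

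The host genes measured did not share the spread of the RNAs inside them. For 27 members the single host had a probe set of its own, giving 23 distinct hosts. All of these hosts are protein-coding, so the non-coding hosts, such as Snhg12 of Snora44 and Snhg4 of Snora74a, were not covered. In all 27 pairs the snoRNA's 4-array range exceeded that of the host's brightest probe set, with medians of 1.36 for the snoRNAs and 0.33 for the hosts. With each host taken at its most variable probe set, an alternative added after the data were seen, this held in 26 of 27 pairs, the exception being Snora62 in Rpsa. The 10 ribosomal protein hosts had ranges of 0.07 to 0.48, and the 13 members inside them 0.47 to 2.81. Rpl27a, the host of Snora3, read 12.31 and 12.30 on knockout arrays and 12.31 and 12.36 on wild-type arrays. Rpl23a, the host of Snord42a, read 12.60 and 12.47 on knockout arrays and 12.51 and 12.46 on wild-type arrays. The host was the brighter of the 2 in 26 of 27 pairs, and the part of level in these ranges was not tested.

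**Figure D5:**
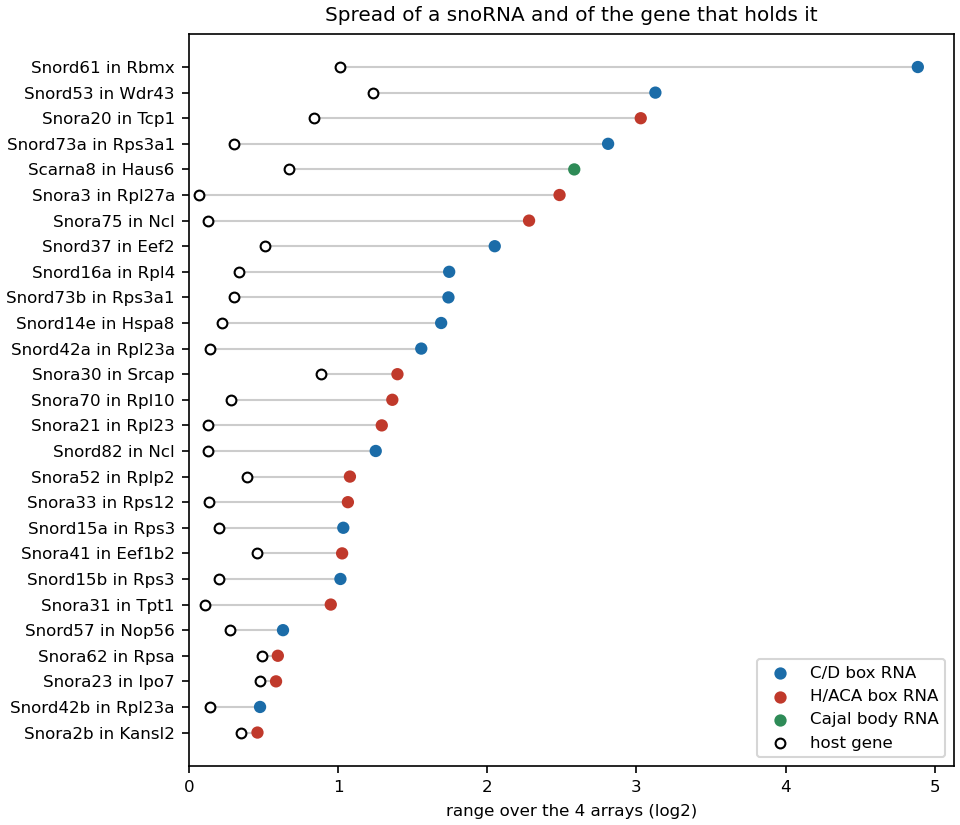
Range over the 4 arrays (log2) of a snoRNA (coloured by class) and of the brightest probe set of its host gene (open circle) for the 27 pairs measured, ordered by the snoRNA's range. The host lies to the left of its snoRNA in every pair.

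Differences between genotypes were set side by side in the same pairs. Across the 27 pairs, which share arrays and in part hosts, Pearson's r between the snoRNA's and the host's difference was -0.24 and Spearman's rho -0.08; r was 0.18 without wild-type replicate 2. Wdr43, a small-subunit processome gene, had the largest host difference, 1.06 ± 0.19, at 10.19 and 10.21 on knockout arrays and 8.97 and 9.31 on wild-type arrays. Its intronic Snord53 read 7.26 and 6.35 on knockout arrays and 6.41 and 9.47 on wild-type arrays, a difference of -1.14 ± 1.06. No host passed the threshold in limma, with 0.945 the smallest adjusted p.

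RNAs of the same host also differed from each other. Of the 10 hosts with 2 members, 5 had both differences on the same side of 0, and the same array was highest for both RNAs in 2. In the Ncl introns, Snora75 read 8.64 and 10.39 on knockout arrays and 8.11 and 8.84 on wild-type arrays, highest on knockout replicate 2, whereas Snord82 was highest on wild-type replicate 2. Snora75 is named after its values were seen.

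The proteins that build and serve these RNAs gave no call in limma either, over all probe sets tested. Of the 4 C/D core protein genes, 1 was higher and 3 lower in knockout, with a median of -0.10. Fbl, the methyltransferase fibrillarin, differed by -0.19 ± 0.26, Nop56 by 0.23 ± 0.15 and Snu13 by -0.27 ± 0.24. All 4 H/ACA core genes were higher, with a median of 0.20. Dkc1, the pseudouridine synthase dyskerin, differed by 0.25 ± 0.23, Gar1 by 0.30 ± 0.17 and Nhp2 by 0.14 ± 0.37. These lists had median 4-array ranges of 0.46 and 0.53, against 0.46 for all probe sets. The 3 protein lists described next had wider ones, 0.74 for assembly factors, 0.67 for processome proteins and 0.74 for trimming enzymes, which are 1.62, 1.47 and 1.62 times that of all probe sets.

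Among 15 assembly and trafficking factors, 7 were higher and 8 lower in knockout, with Shq1, a chaperone of dyskerin, at 1.11 ± 0.54 and the C/D assembly factors Znhit3 and Znhit6 at -0.88 ± 0.37 and -0.51 ± 0.26. Of 20 processome protein genes 9 were higher and 11 lower, with Wdr43 as above, Bms1 at 0.49 ± 0.26 and Nop14 at -0.48 ± 0.16. Of 14 trimming enzyme genes 9 were higher and 5 lower, with the exosome genes Exosc8, Exosc9 and Exosc5 at 0.74 ± 0.29, 0.73 ± 0.22 and 0.69 ± 0.35. The 6 non-coding host genes measured, 2 higher and 4 lower, held Snhg15 at -0.58 ± 0.24, Snhg16 at -0.27 ± 0.32 and Snhg17 at -0.10 ± 0.37. None of those named was the annotated host of a member. At an unadjusted p under 0.05 these 6 lists held 0, 0, 2, 2, 1 and 0 genes in the order given, where 5.01% of all probe sets passed.

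Other short RNAs gave a point of comparison for the spread. The 305 probe sets of microRNA genes had a median 4-array range of 0.44, or 0.96 times that of all probe sets, and were mostly dim, with a median level of 4.73. Of them 113 were higher (37.0%) and 192 lower in knockout, and none was called. Of all probe sets 44.2% were higher, and of those at or below the median level 37.5%, near the microRNA share. Among those above the median level of all probe sets, the 3 with the largest differences were Mir695 at -2.59 ± 0.69, Mir697 at 1.38 ± 0.96 and Mir17hg, the host transcript of a microRNA cluster, at 1.33 ± 0.52. The 14 probe sets of other short RNAs had a median range of 0.63. Rmrp, the RNA of the nucleolar ribonuclease MRP, read 8.63 and 7.46 on knockout arrays and 7.66 and 10.34 on wild-type arrays, with wild-type replicate 2 highest. Rnu3a, a gene of the U3 RNA that the choice by symbol did not take in, read 7.97 and 9.50 on knockout arrays and 7.73 and 8.45 on wild-type arrays. The spliceosomal Rnu12 read 8.32 and 8.21 on knockout arrays and 8.91 and 8.34 on wild-type arrays, a difference of -0.36 ± 0.24.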

How the data were processed

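Total RNA of sorted KLS cells underwent NuGen Ovation amplification and biotin labelling, per the labels' protocols. The intensity deposited by the authors is a single number for every probe set on an array. The submitters' processing notes name Affymetrix Expression Console and RMA, with no settings. The values are linear, so log2 was taken, with no further normalization. The first 6615 of 35554 probe sets, which precede the first annotated one, were left out as presumed controls. Host genes were matched by interval only, since strand was not used. Same-numbered arrays were not treated as pairs in the main fit. Their deviations from the group means correlated at 0.04, which cannot show whether they were paired. Symbols came from the platform annotation of 2016, and current symbols, lengths and hosts from RefSeq GRCm38.p6.

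Knockout minus wild type was fitted with limma 3.58.1 in R 4.3.3 (lmFit, eBayes, two-sided, Benjamini-Hochberg over 28939 probe sets, threshold 0.05); SE is the moderated standard error, and all adjusted p-values come from this fit. The fit was also run on simulated data with known changes. There the variances were shuffled over probe sets, so the wider spread of the members was not modelled. Members, lists and the rule for named genes were chosen with earlier results of these data known. The rule took, per box class, up to 5 non-overlapping members per direction above the median level and the 3 widest and 3 steadiest, all Cajal body RNAs, members with other roles, and the 3 largest differences above the median level per protein or RNA list. Snora16a, Snora62, Snora75, Snord42b, Snord53, Snord61 and the 2 ribosomal protein hosts with printed levels were named after their values were seen. Alternatives were a dim filter, other normalizations, an offset, variance models, a block for replicate number, arrays left out in turn, 1 probe set per gene and probe set means. Detection calls were not used here, and precision is limited by there being 4 arrays.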

Additional observations from a re-analysis of the deposited data

How the results depend on the processing

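No member was called under any setting run. The 1 call over all probe sets became 0 under repeated quantile normalization, an offset of 32, an intensity trend, an intensity trend and robust estimation, the leading probe sets kept and the replicate block, and leaving out any array gave 0 to 0; the cause was not tested. Whether same-numbered arrays were paired is not stated. Their deviations from the group means correlated at 0.04 over all probe sets, which cannot settle the question. With the replicate block, 14 members had an unadjusted p under 0.05, against 9 without it; over all probe sets the shares were 5.29% and 5.01%. Members 2-fold apart without overlap numbered 5 with an offset of 32, where 0.646% of all probe sets were as far apart. At a 1.5-fold threshold they numbered 16, where 5.66% of all probe sets passed. On leaving out an array they numbered 16 to 23, where 2.94% to 3.46% of all probe sets passed. With the leading probe sets kept they stayed at 9, where 4.19% of all 35554 probe sets passed. The C/D median ran from -0.26 to 0.51 with an array left out. Alternatives for the range ratios were chosen after the data were seen. The C/D ratio of 3.13 was 2.83 with the dim filter, 3.24 under repeated quantile normalization, 3.89 at an offset of 32, 2.71 with the leading probe sets kept and 2.35 to 3.55 with an array left out, and the Cajal body ratio of 0.47 was 0.77 under repeated quantile normalization. Of 362 alternative values of 30 named genes, 347 kept their direction. Many of these could not turn. The dim filter, the variance models, the replicate block and the leading probe sets kept leave a difference unchanged. The other 15 turned, each with an array left out, in 10 of the 30 genes. Scarna8 ran from -2.01 to 0.57, Scarna13 from -0.23 to 0.011, Snora23 from -0.23 to 0.35 and Snora69 from -2.29 to 0.36. Snora73a ran from -0.073 to 0.57, Snora73b from -0.19 to 0.68 and Snord22 from -0.40 to 0.16. Snord35b ran from -1.47 to 2.05, Snord38a from -0.26 to 2.94 and Snord49b from -0.42 to 2.40.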

Other observations

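Probe sets that name a snoRNA beside another gene were kept out of the members and are given as values only. There were 41, of which 24 belong to the imprinted Snord116 cluster and are mostly alike in value. All 24 Snord116 probe sets were highest on wild-type replicate 2, at a median level of 3.58, near the dim end of the arrays. The other 17 had a median 4-array range of 1.38, close to the 1.37 of the members. The widest, chosen after its values were seen, was a probe set of Snord68 and Rpl13, which read 8.29 and 2.96 on the knockout arrays and 3.16 and 3.92 on the wild-type arrays.

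Repeated probe sets of 6 member genes gave no independent reading. Those of Scarna17, Snora30 and Snord118 held identical values on every array, and those of Snora3, Snora21 and Snord58b differed by at most 0.03, 0.10 and 0.24.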
